A study of Mus musculus with 4 samples.

Results

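The genes described here encode the subunits of the vacuolar ATPase and the cathepsins, the proton pump and the proteases of endosomes and lysosomes. They were taken by name: protein-coding genes of GENCODE M21 whose symbol begins with Atp6v0, Atp6v1, Atp6ap1 or Atp6ap2, or is Cts followed by 1 letter and at most 1 digit. The rule found 44 of the 55487 genes in the deposited table, 26 vacuolar ATPase names and 18 cathepsins. One of the 26, Atp6v1fnb, is named for its place beside Atp6v1f and is not a pump subunit. Tcirg1, which encodes a further isoform of the pump's a subunit, has another name and was read only beside the a isoforms.

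The study profiled mRNA of bulk hepatocellular carcinoma tissue of mice with an H11-myc transgene and Alb-cre, 2 labelled wild type and 2 labelled as having Tfrc deleted conditionally in the liver. Tfrc encodes transferrin receptor 1, and the albumin promoter drives Cre in hepatocytes, so stromal and immune cells of the tumour would keep the gene. The series names Alb-cre H11-myc mice as a whole; whether the wild type mice also carried Cre, the sex and the age are not given in the sources used here. Total counts lay between 15918349 and 17052943 per library.

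Iron enters most cells as diferric transferrin bound to its receptor, and the acid made by the vacuolar ATPase in the endosome releases that iron. The pump has a cytosolic V1 sector, whose A and B subunits hydrolyse ATP, and a membrane V0 sector, whose ring of proteolipids turns against the a subunit and carries protons across. Cathepsins are made as inactive precursors, sorted to the lysosome and activated at low pH, where most act as cysteine proteases and a few as aspartic or serine proteases. In liver, hepatocytes and resident macrophages both hold large lysosomal compartments.

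Many lysosomal genes are known to carry an E-box in their promoters, the sequence CACGTG, which is bound by MYC with MAX and, in the longer form TCACGTGA, by TFEB, the regulator of lysosomal genes. RefSeq windows of the GRCm38.p6 build, running from 250 bases before to 50 bases after a start site, were found for 33 of the 44 genes. CACGTG stood in the windows of 8 of these 33 genes (24.2%), against 8.09% of all 27025 genes with a window. TCACGTGA, which contains the E-box, stood in 5 of 33 (15.2%) against 1.12%, and the full CLEAR form, longer by a base on each side, in 0 of 33 against 0.37%. Each motif reads the same on both strands, and the windows were not matched for base composition. The sites of the longer form are shown because they lie in genes of both families, the pump and the proteases. Capitals mark the motif, and all are written 5′ to 3′ on the gene's strand.
Ctsd: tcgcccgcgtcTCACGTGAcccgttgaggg
Ctsa, first site: tgagcaaactgTCACGTGAtgcagatgctc
Ctsa, second site: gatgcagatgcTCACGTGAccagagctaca
Atp6v1a: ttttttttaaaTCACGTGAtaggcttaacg
Atp6v0d1: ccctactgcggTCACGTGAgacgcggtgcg
Atp6v0e: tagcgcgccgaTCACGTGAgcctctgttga
The stretches lie at chr7:142387908-142387937 on the minus strand for Ctsd, at chr2:164833749-164833778 and chr2:164833766-164833795 on the plus strand for Ctsa, and at chr16:44139373-44139402 on the minus strand for Atp6v1a. They lie at chr8:105566050-105566079 on the minus strand for Atp6v0d1 and at chr17:26676387-26676416 on the plus strand for Atp6v0e. Counting the start site as 1, the motif began at -99 in Ctsd, -13 and 5 in Ctsa, -132 in Atp6v1a, -4 in Atp6v0d1 and 3 in Atp6v0e. The Atp6v1a stretch lies inside the gene's span but in no annotated exon, and that of Atp6v0d1 in none either, while those of Ctsd, Ctsa and Atp6v0e overlap annotated exons. The proton ring gene Atp6v0b held the short motif at 2 places without the longer form, and Ctsl and Ctsf held it once each.
Atp6v0b, first site: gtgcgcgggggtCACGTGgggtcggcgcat
Atp6v0b, second site: gggtcggcgcatCACGTGcgccggtcaggt
These sites lie at chr4:117887348-117887377 and chr4:117887330-117887359, both on the minus strand. A match describes the letters of a window and does not show that a factor was bound.

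The labels could not be checked by the targeted gene. Tfrc had 460 and 234 CPM (counts scaled to a common library size with TMM factors) in wild type replicates 1 and 2, and 334 and 205 CPM in knockout replicates 1 and 2, with an adjusted p of 0.833 in edgeR's quasi-likelihood test. The groups overlapped, and the count covers exons that may lie outside the deleted part, so each direction is given for the libraries as labelled. Wild type replicate 2 stood apart from the other 3 libraries on the first principal component, which held 48.2% of the variance. The mitochondrial share of counts was 8.69% and 4.13% for wild type replicates 1 and 2, and it was 9.8% and 16.6% for the knockout replicates. All 10 hepatocyte markers were detected, and their summed level was 18920 and 63655 CPM in wild type, against 45214 and 39591 CPM in those labelled knockout.

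No vacuolar ATPase gene and no cathepsin passed the adjusted threshold of 0.05. Of 16310 genes tested by edgeR, 0.0% passed it and 8.3% had an unadjusted p under 0.05. Of the 26 vacuolar ATPase names, 21 had enough counts to be tested, 0 passed, and 2 had an unadjusted p under 0.05. These were Atp6v0a4, higher in the libraries labelled knockout (3.95% of all tested genes were higher at that level), and Atp6v1b1, lower (4.35%). Of the 18 cathepsins, 13 were tested, 0 passed, and 0 had an unadjusted p under 0.05. DESeq2 passed 0.92% and limma-voom 0.00613% of all genes, and 0 genes of either family. Among the other alternatives, 0.00613% of genes passed with library totals, 0.0245% with a replicate block, 0.0176% without knockout replicate 2, 0.394% without wild type replicate 2 and 2.38% when wild type replicate 1 was left out; of the members only Atp6v0a4 passed, in the last of these.

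The core of the pump was expressed in all 4 tumours. Levels of different genes are given as CPM per kilobase of the principal coding transcript. The deposited FPKM divides by the summed length of all distinct annotated exons (97.9% of 12662 genes with at least 200 counts, within 1%), which counts overlapping exons more than once. For Atp6v1h that length is 11611 bases against a principal transcript of 2049 bases. Per kilobase, the highest levels belonged to Atp6v1f, at 135 ± 63.2 in wild type and 108 ± 9.23 in the libraries labelled knockout (SD, n = 2 each), and to the proteolipid gene Atp6v0c, at 132 ± 0.976 and 96.9 ± 41.6. Atp6v1e1 had 116 ± 57.8 and 82.8 ± 21.7, and the second proteolipid gene Atp6v0b 77.1 ± 18.1 and 77.6 ± 1.42. Among the V1 genes with at least 10 CPM, Atp6v1d was lowest per kilobase, at 9.8 ± 2.66 and 9.54 ± 2.13, below Atp6v1a at 15.1 ± 3.82 and 13.4 ± 3.14.

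In the catalytic head, the A subunit gene Atp6v1a had 75.3 and 52.4 CPM in wild type replicates 1 and 2, against 66.2 and 47.4 CPM in knockout replicates 1 and 2. The main B subunit gene, Atp6v1b2, stood at 62.8 and 74.9 CPM in wild type, and at 71.3 and 50.6 CPM in those labelled knockout. For both genes the groups overlapped, with knockout replicate 2 the lowest library. Atp6v1b1, the B isoform known from acid-secreting cells of the kidney and inner ear (ENSMUSG00000006269, chromosome 6, 83742990 to 83758855, mm10), stood at 4.63 and 5.07 CPM in wild type, and at 1.6 and 1.45 CPM in those labelled knockout. The knockout pair lay below the wild type pair, and the spread within each group was small. Counts behind these values were 85 and 78 against 26 and 23. The log2 difference was -1.66 (SE 0.52, 95% interval -2.88 to -0.44), 3.16-fold lower, with an edgeR adjusted p of 0.547 and adjusted p values of 0.124 to 1 under the alternatives. Leaving out single libraries kept it between -1.77 and -1.59. Atp6v1b1 supplied 9.43% and 8.73% of the B transcripts per kilobase in wild type replicates 1 and 2, against 3.08% and 3.89% in knockout replicates 1 and 2.

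In the stalks of V1, the peripheral stalk gene Atp6v1e1 stood at 98.7 and 206 CPM in wild type, and at 129 and 88.5 CPM in those labelled knockout. Atp6v1f, a subunit of the central stalk, had 63.8 and 127 CPM against 71.4 and 80.5 CPM, and Atp6v1g1, of the peripheral stalk, 41.2 and 74 CPM against 55.8 and 61.6 CPM. In these 3 genes wild type replicate 2 was the highest library, 1.98 times wild type replicate 1 for Atp6v1f and 2.09 times for Atp6v1e1, and the knockout libraries lay inside or beside the wild type range. Atp6v1c1, whose product links V1 to V0 and is released when the pump comes apart, had 67.5 and 66.6 CPM against 58.9 and 38.4 CPM. Its groups did not overlap, with a log2 difference of -0.46 (SE 0.32, adjusted p = 0.702) that was -0.19 without knockout replicate 2. Atp6v1h, the regulatory subunit, was the steadiest of this sector, at 56.9 and 67.3 CPM against 62.8 and 59.4 CPM (95% interval of the log2 fold change -0.7 to 0.65). Atp6v1d had 29 and 42.8 CPM against 40.5 and 29.5 CPM.

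The V1 genes known for restricted expression were nearly silent. Atp6v1c2 had 2 counts in wild type replicate 1 and 0 in the other libraries, Atp6v1e2 had 1 and 0, and Atp6v1g3 had 0 in all 4. A count of 3, the floor used here, corresponds to between 0.163 and 0.195 CPM in these libraries, for counting error only. Atp6v1g2, best known from neurons, stood at 0.98 and 0.845 CPM in wild type, and at 1.54 and 1.77 CPM in those labelled knockout, a log2 difference of 0.85 (SE 0.61, adjusted p = 0.706). The groups did not overlap, but the values rest on 13 to 28 counts and the gene overlaps Nfkbil1 on the opposite strand, which had 442 and 397 counts against 219 and 163. Atp6v1c1, Atp6v1e1 and Atp6v1g1 supplied at least 97.9% of the C, E and G transcripts per kilobase in every library.

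**Figure D1:**
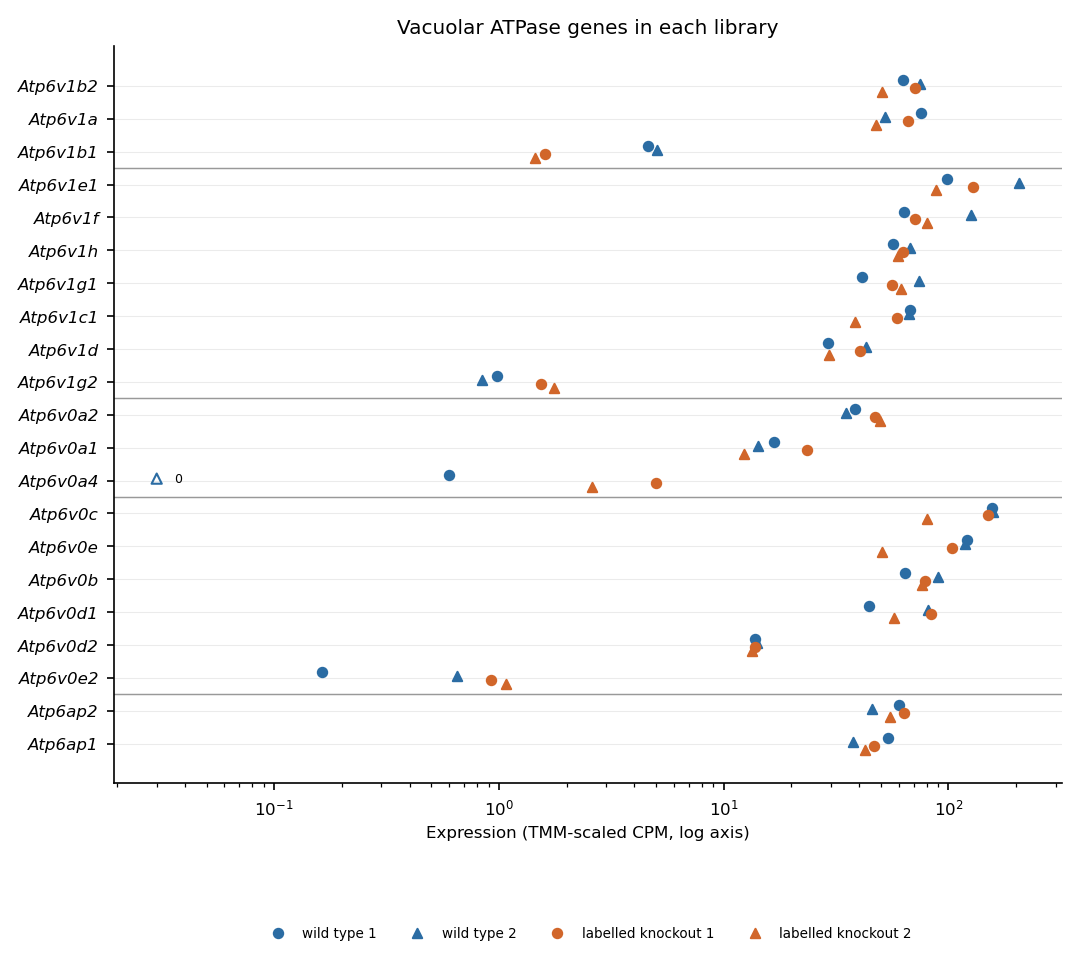
Expression of the 21 tested vacuolar ATPase genes in each library, in TMM-scaled CPM on a log axis, with circles for replicate 1 and triangles for replicate 2, blue for wild type and orange for the libraries labelled knockout, and lines between the V1 head, V1 stalks, a subunit, other V0 and accessory genes. The genes with at least 10 CPM lie between 12.3 and 206 CPM, mostly with the groups intermixed, while Atp6v1b1 and Atp6v0a4 lie apart at low levels; the open triangle marks a count of 0.

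In the V0 sector the a subunit was the one with the most mixed isoforms. This subunit carries the proton channels and directs the pump to its membrane. Tcirg1, the a3 isoform of lysosomes, osteoclasts and immune cells, supplied 78.5% and 84.1% of the a transcripts per kilobase in wild type replicates 1 and 2, against 70.4% and 80.2% in knockout replicates 1 and 2. Atp6v0a2, an isoform of the Golgi and endosomes, supplied 13.3% and 10.3% against 16.1% and 14%, and Atp6v0a1 7.82% and 5.58% against 10.7% and 4.62%. On the deposited FPKM scale the share of Tcirg1 lay between 66.9% and 81.9%, so the order of the 3 main isoforms was the same.

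Atp6v0a2 stood at 38.2 and 35 CPM in wild type, and at 47.2 and 49.5 CPM in those labelled knockout. The knockout pair lay above the wild type pair, with a log2 difference of 0.4 (SE 0.28, adjusted p = 0.705) that stayed between 0.34 and 0.43 when single libraries were left out. Atp6v0a1 had 16.8 and 14.2 CPM against 23.6 and 12.3 CPM, so the knockout libraries lay on either side of the wild type. Atp6v0a4, the isoform of kidney intercalated cells and epididymis (ENSMUSG00000038600, chromosome 6, 38048483 to 38124586, mm10), had 11 and 0 counts in wild type replicates 1 and 2, against 81 and 41 counts in knockout replicates 1 and 2. In CPM these were 0.599 and 0 against 5 and 2.59. The groups did not overlap, with a log2 difference of 3.58 (SE 1.15, 95% interval 0.85 to 6.3) and an edgeR adjusted p of 0.547. Without wild type replicate 1 this gene passed (adjusted p = 0.0311, the smallest of its alternatives, whose largest was 1); the only wild type library was then at 0 counts, and the mean of the knockout libraries was at least 19.5-fold above a floor of 3 counts in it. Atp6v0a4 overlaps D630045J12Rik on the same strand, which had 61 and 26 counts in wild type, against 83 and 63 in the libraries labelled knockout, so its counts are uncertain. Its share of the a transcripts was at most 2.76% in any library.

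**Figure D2:**
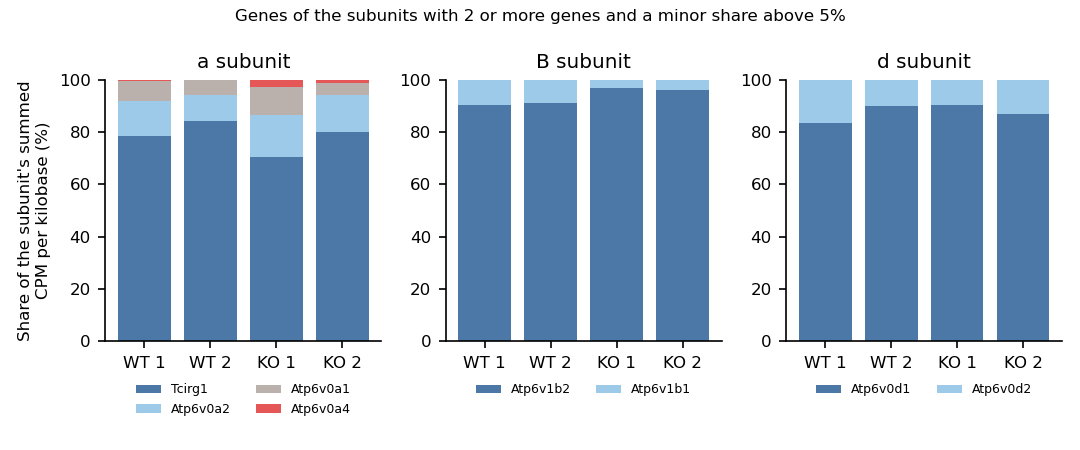
Share of each gene in the summed CPM per kilobase of principal transcript for the a, B and d subunits, 1 bar per library, wild type (WT) and labelled knockout (KO). Tcirg1, Atp6v1b2 and Atp6v0d1 hold the largest share of their subunit in all 4 libraries, and the share of Atp6v1b1 is 9.43% and 8.73% in wild type against 3.08% and 3.89%.

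Among the V0 genes found by the naming rule, the largest levels belonged to genes of the proteolipid ring and its partners. Tcirg1, outside that rule, had 128 and 163 CPM in wild type, against 117 and 162 CPM in those labelled knockout. Atp6v0c stood at 156 and 157 CPM in wild type, and at 149 and 79.9 CPM in those labelled knockout, and Atp6v0e, a small membrane subunit, 121 and 119 CPM against 104 and 50.7 CPM. In both genes the wild type libraries nearly coincided in CPM and knockout replicate 2 lay far below the other 3. On the deposited FPKM, scaled by column totals, Atp6v0c had 38.2 and 31.2 in wild type against 33.4 and 16.9, so its groups overlapped there. In CPM the groups of both genes did not overlap. The log2 fold changes of -0.45 (SE 0.37, adjusted p = 0.749) and -0.64 (SE 0.39, adjusted p = 0.672) were -0.06 and -0.21 without knockout replicate 2, and -1 and -1.27 without knockout replicate 1. Atp6v0b, also of the ring, had 64.4 and 89.9 CPM against 78.6 and 76.6 CPM.

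Atp6v0d1, which joins the ring to the central stalk, stood at 44.4 and 81.5 CPM in wild type, and at 83.6 and 57.2 CPM in those labelled knockout, with the groups overlapping. Its paralog Atp6v0d2, known from osteoclasts and macrophages, had 13.7 and 14.1 CPM against 13.8 and 13.3 CPM, the narrowest spread of any of these genes relative to its level. Atp6v0d2 supplied between 9.59% and 16.5% of the d transcripts per kilobase. A list of 6 markers of osteoclast-like macrophages had a summed level of 127 and 190 CPM in wild type, against 152 and 94.2 CPM in those labelled knockout. None of them was at 0 in all libraries, but Dcstamp and Calcr had too few counts to be tested. Acp5, also one of the lysosomal hydrolases listed below, made up most of that sum, at 109 and 157 CPM against 94.4 and 70.8 CPM. Of the 4 tested, 3 had a negative log2 fold change and 1, Gpnmb, a positive one. The part of these markers in the values of Atp6v0d2 was not tested. Atp6v0e2, the minor e isoform, had 3 and 10 counts against 15 and 17, a log2 difference of 1.31 (SE 0.84, adjusted p = 0.681).

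The accessory subunits assist assembly and sorting of the pump, and the product of Atp6ap2 is also known as the prorenin receptor. Atp6ap1 had 53.9 and 37.6 CPM against 46.7 and 42.6 CPM, and Atp6ap2 60.1 and 45.9 CPM against 63.5 and 54.9 CPM. For both the groups overlapped. Atp6ap1l had 0 counts in all libraries, and Atp6v1fnb had 3 counts in wild type replicate 1 and 0 elsewhere.

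Across the 21 tested vacuolar ATPase genes, 9 had a log2 fold change above 0 and 12 below 0, with a median of -0.04, beside 0.01 over all 16310 tested genes. In CPM the groups did not overlap for 4 genes with the knockout higher (Atp6v0a2, Atp6v0a4, Atp6v0e2 and Atp6v1g2) and 4 with the knockout lower (Atp6v0c, Atp6v0e, Atp6v1b1 and Atp6v1c1). Over all tested genes these shares were 21.9% and 20.1%, so the members' counts are near the background. Of the 8, 3 of the higher and 1 of the lower had under 6 CPM in every library. Leaving out wild type replicate 1 gave a median of -0.25, wild type replicate 2 0.1, knockout replicate 1 -0.17 and knockout replicate 2 0.03, so its sign rested on which library was used. For 18 of the 21 genes the fold between the libraries of at least 1 group was larger than the fold between the groups, beside 73.4% of all tested genes. Summed over the family, the level was 1070 and 1312 CPM in wild type, against 1175 and 900.03 CPM in those labelled knockout.

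The cathepsin family was led by 3 genes. Per kilobase, Ctsd stood at 365 ± 191 in wild type and 192 ± 67.7 in the libraries labelled knockout, Ctsb at 308 ± 145 and 148 ± 42.5, and Ctsz at 283 ± 146 and 210 ± 47.4. Ctsh, Ctsl and Ctss followed, with means between 66.9 and 134 CPM per kilobase in each group. Summed over the family, the level was 2637 and 4642 CPM in wild type replicates 1 and 2, against 2644 and 1818 CPM in knockout replicates 1 and 2. Wild type replicate 1 and knockout replicate 1 thus had nearly the same total, and the groups overlapped. Ctsb, Ctsd and Ctsz together made up 65.4% and 76.9% of that sum in wild type, against 64.5% and 61.6% in those labelled knockout.

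Among the broadly expressed cysteine cathepsins, Ctsb, an abundant endopeptidase and dipeptidyl carboxypeptidase (ENSMUSG00000021939, chromosome 14, 63122462 to 63145923, mm10), stood at 976 and 1947 CPM in wild type, and at 845 and 560.4 CPM in those labelled knockout. The groups did not overlap, but wild type replicate 1 was nearer to knockout replicate 1 than to wild type replicate 2. The log2 difference was -1.06 (SE 0.51, 95% interval -2.26 to 0.15, adjusted p = 0.631), or -0.47 without wild type replicate 2, while leaving out wild type replicate 1 gave -1.51. Ctsb overlaps Fdft1 on the opposite strand, which had 1710 and 4398 counts in wild type, against 1372 and 2015 in those labelled knockout. Ctsb itself had 17919, 29958, 13704 and 8885 counts in the same order. Ctsz, a carboxypeptidase, had 260 and 557 CPM against 351 and 254 CPM, so its groups overlapped, and its log2 fold change turned from -0.43 to 0.22 without wild type replicate 2.

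Ctsh, an aminopeptidase, and Ctsc, the dipeptidyl peptidase that activates granule serine proteases of leukocytes, had the steadiest differences of the abundant cathepsins. Ctsh stood at 181 and 236 CPM in wild type, and at 145 and 109 CPM in those labelled knockout, a log2 difference of -0.72 (SE 0.33, 95% interval -1.51 to 0.06, adjusted p = 0.626). Ctsc had 90.6 and 79.9 CPM against 64 and 48.6 CPM, a log2 difference of -0.6 (SE 0.3, 95% interval -1.31 to 0.12, adjusted p = 0.634). In both genes each knockout library lay below each wild type library, and leaving out single libraries gave -0.98 to -0.52 for Ctsh and -0.84 to -0.41 for Ctsc. Adjusted p values under the alternatives lay between 0.119 and 1 for Ctsh and between 0.298 and 1 for Ctsc.

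Ctsl, an endopeptidase of most cells, did not share this order. It stood at 222 and 231 CPM in wild type, and at 308 and 221 CPM in those labelled knockout, with knockout replicate 1 the highest library and the other 3 close together. Its log2 difference was 0.22 (SE 0.33, 95% interval -0.56 to 1.01, adjusted p = 0.864), and -0.06 without knockout replicate 1. Ctso had 28.9 and 27.2 CPM against 30.3 and 26.5 CPM, and Ctsf 14.5 and 20.5 CPM against 16.2 and 16.3 CPM. Both lay within the wild type spread or beside it.

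The aspartic protease Ctsd, a main protease of the lysosome, stood at 489 and 1064 CPM in wild type, and at 510 and 306 CPM in those labelled knockout. Wild type replicate 1 lay below knockout replicate 1, so the groups overlapped. The log2 fold change of -0.93 (SE 0.51, adjusted p = 0.643) was -0.26 without wild type replicate 2, while leaving out wild type replicate 1 gave -1.42. Ctse, the other aspartic cathepsin, known from stomach and immune cells, had 37 and 15 counts in wild type, against 15 and 7 in the libraries labelled knockout, a log2 difference of -1.12 (SE 0.74, adjusted p = 0.685). Wild type replicate 2 and knockout replicate 1 thus had the same count. The groups of Ctse did not overlap in CPM, but on the deposited FPKM those libraries had 0.208 and 0.223, an overlap. The serine carboxypeptidase Ctsa, which in the lysosome shields neuraminidase and beta-galactosidase, had 208 and 368 CPM against 250 and 201 CPM. Its groups overlapped, and its counts may be mixed with those of Pltp and Neurl2 on the opposite strand.

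Cathepsins of particular cell types gave no common direction. Ctss, typical of macrophages and other antigen-presenting cells, stood at 160 and 104 CPM in wild type, and at 115 and 65.9 CPM in those labelled knockout, with the groups overlapping and a log2 difference of -0.54 (SE 0.39, adjusted p = 0.712). It was -0.19 without knockout replicate 2 and -1.03 without knockout replicate 1. Ctsk, the collagenase of osteoclasts, also made by fibroblasts, had 2.45 and 5.46 CPM against 5.12 and 5.11 CPM. Ctsw, a cathepsin of cytotoxic T cells and natural killer cells, had 41 and 18 counts in wild type, against 40 and 58 in the libraries labelled knockout. Its log2 difference was 0.84 (SE 0.6, adjusted p = 0.709), and it overlaps Fibp on the opposite strand. Ctsg, the granule protease of neutrophil precursors, and the placental genes Ctsj, Ctsm, Ctsq and Ctsr had 0 counts in all 4 libraries.

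**Figure D3:**
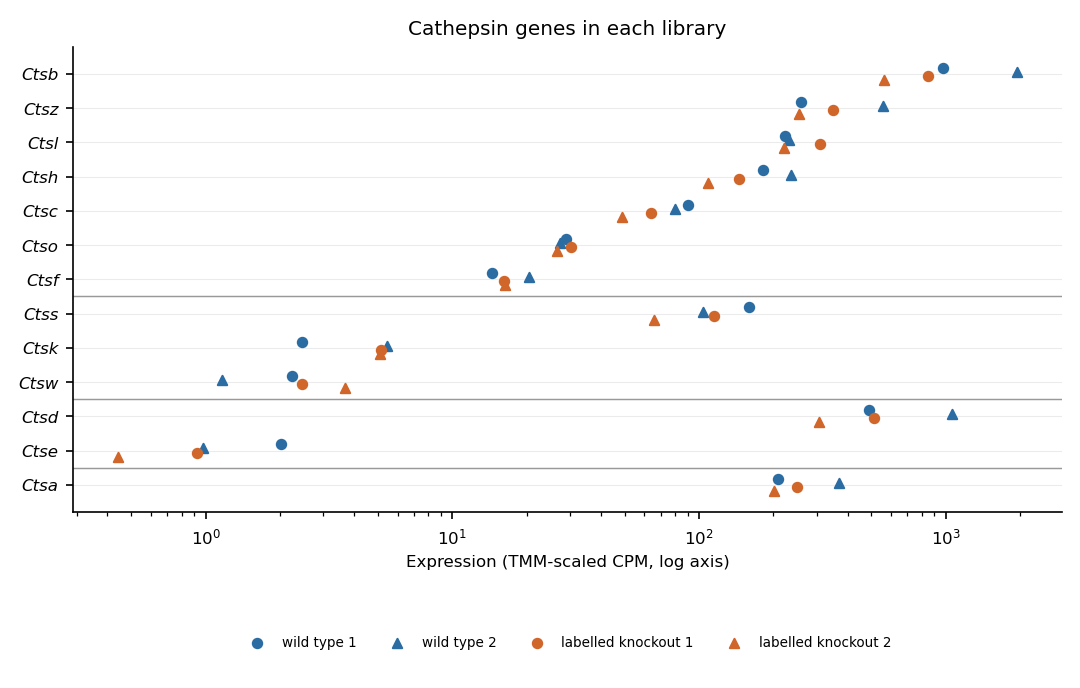
Expression of the 13 tested cathepsin genes in each library, in TMM-scaled CPM on a log axis, with circles for replicate 1 and triangles for replicate 2, blue for wild type and orange for the libraries labelled knockout, and lines between the broad cysteine, restricted cysteine, aspartic and serine cathepsins. Ctsb, Ctsz, Ctsd, Ctsa and Ctsh share their extremes, with wild type replicate 2 highest and knockout replicate 2 lowest, while Ctsl has knockout replicate 1 highest.

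Across the 13 tested cathepsins, 4 had a log2 fold change above 0 and 9 below 0, and the median was -0.43, beside 0.01 over all tested genes. Over the 1700 tested genes with a mean of at least 100 CPM, which include Ctsa, Ctsb, Ctsd, Ctsh, Ctsl, Ctss and Ctsz, the median was -0.19 and 66.4% were negative. In CPM the groups did not overlap for 4 cathepsins with the knockout lower (Ctsb, Ctsc, Ctse and Ctsh) and 1 with the knockout higher (Ctsw), beside 20.1% and 21.9% of all tested genes. The median was -0.03 without wild type replicate 2, with 6 positive and 7 negative values, and -0.72 without knockout replicate 1, with 2 positive and 11 negative. For 9 of the 13 the fold between the libraries of at least 1 group exceeded that between the groups. A log2 fold change of the same sign under each of the 11 alternatives that tested the gene was found for 7 cathepsins (Ctsb, Ctsc, Ctsd, Ctse, Ctsh, Ctss and Ctsw) and 9 pump genes.

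**Figure D4:**
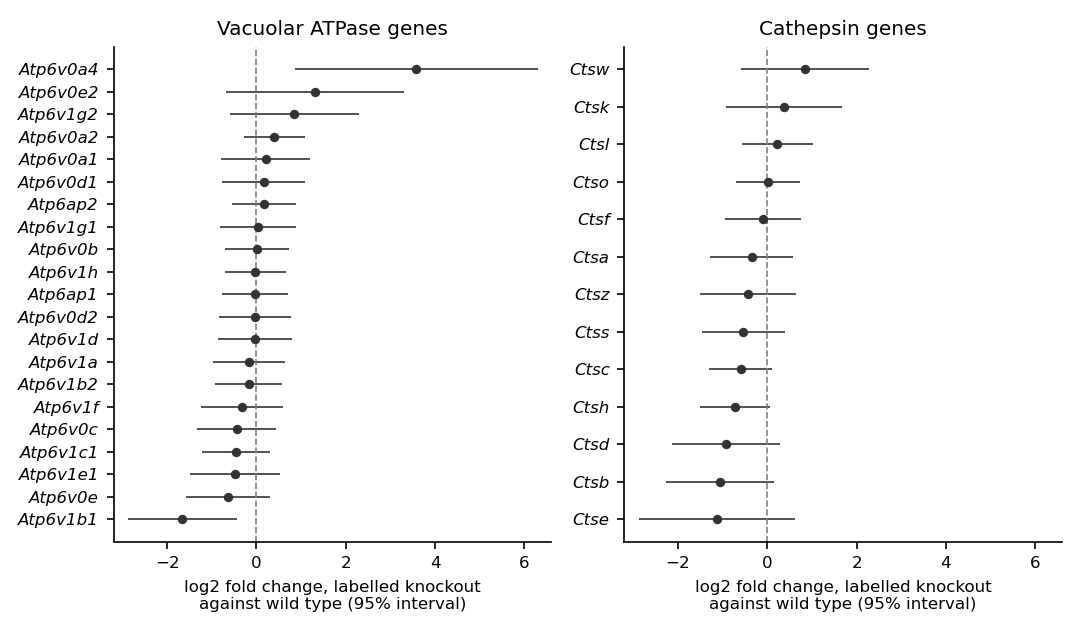
Log2 fold change of each tested gene in the libraries labelled knockout against wild type, with the 95% interval of edgeR's quasi-likelihood fit. The intervals of Atp6v0a4 and Atp6v1b1 lie on 1 side of 0 before adjustment, and those of the other tested genes include 0.

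The libraries at the extremes were the same for much of both families. Knockout replicate 2 was the lowest library for 10 of the 13 tested cathepsins and 9 of the 21 pump genes, against 23.4% of all tested genes. Wild type replicate 2 was the highest for 7 cathepsins and 10 pump genes, against 31.4%. Among the 9 members with a mean of at least 100 CPM, knockout replicate 2 was lowest in 9 and wild type replicate 2 highest in 7. Over all 1700 genes at that level these shares were 34% and 57.5%. Knockout replicate 2 was also the library with the largest mitochondrial share, and wild type replicate 2 the one with the smallest; the part of this in the members' values was not tested.

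Other lysosomal genes were read from lists separate from the members. Of 32 tested lysosomal hydrolases, 4 had a log2 fold change above 0 and 28 below 0 (median -0.46), 15 had no overlap with the knockout lower and 0 with it higher, beside 20.1% and 21.9% of all tested genes. By edgeR 0 of the 32 passed and 4 had an unadjusted p under 0.05, each with the knockout lower, beside 4.35% of all tested genes. Neu1, the neuraminidase that Ctsa protects, averaged 98.3 ± 24 CPM in wild type, against 52.3 ± 2.31 CPM in the libraries labelled knockout (a log2 difference of -0.91, SE 0.31, adjusted p = 0.554). Hexa, which encodes a glycosidase, had a log2 fold change of -0.95. Of 22 genes of the lysosomal membrane and enzyme sorting, 7 were positive and 15 negative (median -0.14), 2 had no overlap with the knockout higher and 7 with it lower (21.9% and 20.1% of all genes), and 0 passed by edgeR, with 3 at an unadjusted p under 0.05 (8.3% of all genes). Slc11a1, the metal transporter of macrophage phagosomes, had 75 ± 7.2 against 26.3 ± 0.292 CPM (a log2 difference of -1.51, SE 0.29, edgeR adjusted p = 0.424). It passed with DESeq2 (adjusted p = 0.00477) and, by edgeR, without wild type replicate 1 (adjusted p = 0.0287); Cd63 also passed in the latter fit. Igf2r, the receptor that sorts mannose 6-phosphate tagged enzymes, had 108 ± 0.362 against 60.2 ± 9.81 CPM, while Ctns, the lysosomal cystine exporter, had 9.93 ± 1.91 against 19.9 ± 1.67 CPM (log2 fold changes -0.85 and 1, adjusted p = 0.557 and 0.572).

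Inhibitors of cathepsins and a protease that processes them were a further list. Of 11 listed, 6 were tested, 6 had a negative log2 fold change (median -0.57) and 5 had groups that did not overlap, with the knockout lower (20.1% of all genes); Stfa1 and Stfa3 were at 0 in all libraries. Lgmn, the asparaginyl endopeptidase that cleaves several cathepsins as they mature, stood at 180 and 262 CPM in wild type, and at 122 and 75.1 CPM in those labelled knockout (a log2 difference of -1.16, SE 0.38, adjusted p = 0.547). The serpin gene Serpinb6a had a log2 fold change of -1.43, and Cst3, the secreted inhibitor cystatin C, -0.67. By edgeR on all 4 libraries 0 of the 6 passed and 2 had an unadjusted p under 0.05 (8.3% of all genes). Serpinb6a passed without wild type replicate 1 (log2 fold change -1.87, adjusted p = 0.0246), and its log2 fold change was -0.88 without wild type replicate 2.

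The next list holds Tcirg1 with assembly factors and regulators of the pump. Of 13 listed, 11 were tested, 8 had a log2 fold change above 0 and 3 below 0 (median 0.14), 4 had no overlap with the knockout higher and 0 with it lower (21.9% and 20.1% of all genes), and 0 passed by edgeR, with 2 at an unadjusted p under 0.05 (8.3% of all genes). Vma21, an endoplasmic reticulum chaperone of V0 assembly, stood at 19.1 and 24.2 CPM in wild type, and at 43.2 and 39.7 CPM in those labelled knockout (a log2 difference of 0.94, SE 0.31, adjusted p = 0.547). Dmxl2, a rabconnectin that helps V1 and V0 join, had 26 and 12.5 CPM against 42.1 and 37 CPM (a log2 difference of 1.04, SE 0.41, edgeR adjusted p = 0.591). Dmxl2 passed without wild type replicate 1, at a log2 fold change of 1.63 (edgeR adjusted p = 0.0499), and stood at 0.61 without wild type replicate 2. Tmem199, another assembly factor, had a log2 fold change of 0.52. The difference between these lists and the members was not tested.

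Cell type markers differed between the libraries too. In bulk tissue, fewer cells of a type and less RNA per cell cannot be told apart. Of 12 macrophage and Kupffer cell markers, 12 had a negative log2 fold change (median -1.53), and their summed level was 749 and 1138 CPM in wild type, against 414 and 278 CPM in those labelled knockout, with none at 0 in all libraries. Of the Kupffer cell markers in it, Clec4f had 0 counts in wild type replicate 1 and Timd4 had 0 in knockout replicate 1. By edgeR 0 of the 12 passed and 8 had an unadjusted p under 0.05 with the knockout lower, beside 4.35% of all tested genes. With DESeq2 2 of the 12 passed, beside 0.92% of all tested genes. The summed level of these markers was highest in wild type replicate 2 and lowest in knockout replicate 2, as for Ctsb and Ctsh. For Ctss and Ctsc wild type replicate 1 was highest. Single markers varied: 9 of the 12 were highest in wild type replicate 2 and 3 in wild type replicate 1. For 7 of the 12 the groups did not overlap, with the knockout lower, beside 20.1% of all tested genes. Knockout replicate 2 was lowest for 7 of them and wild type replicate 1 for 4. The part of macrophages in the cathepsin values was not tested. Neutrophil markers summed to 15.6 and 71.3 CPM against 9.81 and 6.94 CPM. Of the 10 listed, 1 (Ly6g) was at 0 in all libraries, as was Ctsg. Others were detected, among them Prtn3, with 49 and 266 counts in wild type against 82 and 58 in those labelled knockout. Of the 5 tested, 4 had an unadjusted p under 0.05 by edgeR with the knockout lower, beside 4.35% of all tested genes. By edgeR 0 passed, and with DESeq2 2 passed, beside 0.92% of all tested genes. Cytotoxic lymphocyte markers summed to 16 and 8.12 CPM against 18.1 and 13.1 CPM, with none at 0 in all libraries. Wild type replicate 2 was the lowest library for this sum and for Ctsw. Among the 7 tested markers it was lowest for 4, and knockout replicate 2 was lowest for 3.

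Fibroblast and stellate cell markers, beside which Ctsk may be read, summed to 1413 and 1232 CPM in wild type, against 639 and 1177 CPM in those labelled knockout, with none at 0. Endothelial markers summed to 134 and 148 CPM against 97.8 and 78.8 CPM. Bile duct cell markers summed to 415 and 974 CPM against 1070 and 1126 CPM. None was at 0 in all libraries, and Cftr had 0 counts in wild type replicate 1. Most of that sum was Spp1, at 376 and 923 CPM against 1030 and 1064 CPM. Of the 5 bile duct markers tested, 2 had a log2 fold change above 0 and 3 below 0 (median -0.03). The part of these markers in the values of Atp6v0a4 and Atp6v1b1 was not tested. Dendritic cell markers summed to 53.8 and 28.6 CPM against 30 and 21.9 CPM. Itgax made up most of that sum, at 46.9 and 24 CPM against 22.2 and 15.4 CPM. Its log2 fold change was negative, while 4 of the 5 tested dendritic markers had a positive one (median of the 5, 0.31). B and plasma cell markers summed to 4.14 and 2.86 CPM against 5.55 and 8.14 CPM, and erythroid markers to 901 and 2047 CPM against 198 and 139 CPM. Of 4 erythroid markers tested, 4 were lower at an unadjusted p under 0.05 by edgeR (median log2 fold change -3.2), beside 4.35% of all tested genes. With DESeq2 3 of the 4 passed, beside 0.92%. At that unadjusted level 2 of 9 fibroblast and stellate cell and 3 of 7 endothelial markers were also lower, and 0 hepatocyte, bile duct, dendritic, cytotoxic lymphocyte or B and plasma cell markers were.

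**Figure D5:**
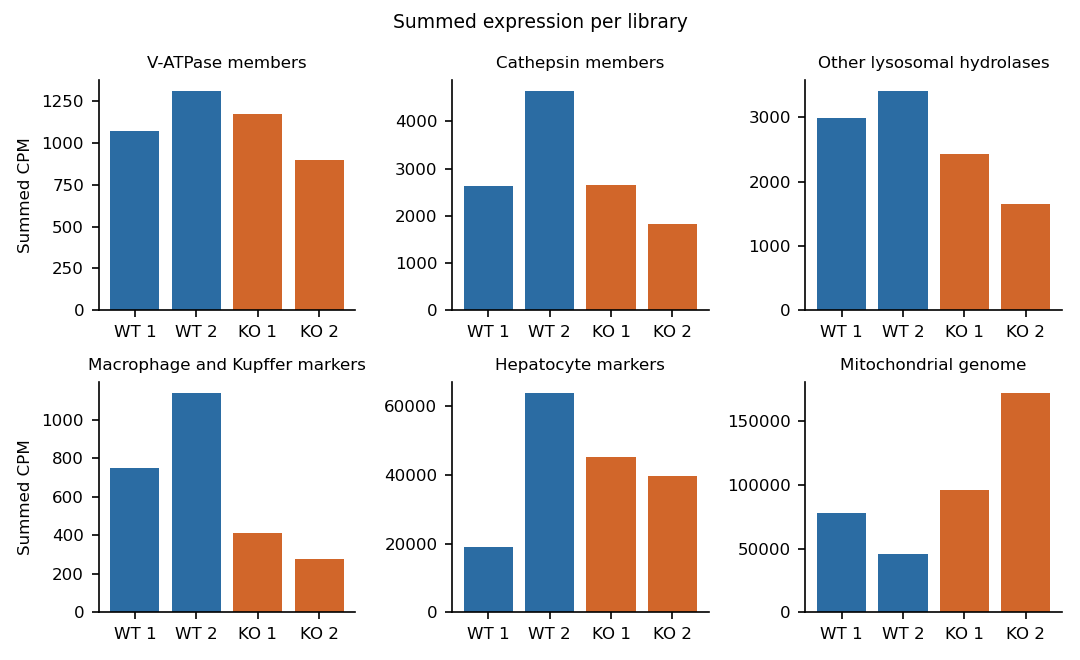
Summed TMM-scaled CPM per library, each axis starting at 0, for the 26 vacuolar ATPase names, the 18 cathepsins, 32 other lysosomal hydrolases, 12 macrophage and Kupffer cell markers, 10 hepatocyte markers and the mitochondrial genome, in blue for wild type (WT) and orange for labelled knockout (KO). The cathepsin sum is 2637 and 4642 CPM in wild type against 2644 and 1818 CPM, an overlap that the sum of the macrophage markers, at 749 and 1138 against 414 and 278 CPM, does not show. Of the 12 single markers, 7 have groups that do not overlap, with the knockout lower, beside 20.1% of all tested genes.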

How the data were processed

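The authors deposited 1 table with raw counts and FPKM per gene for 4 libraries, per the file headers. The submitters' processing notes list HISAT2, StringTie, edgeR and SAMtools 1.3.1 and the build mm10, without roles. Libraries came from an mRNA library kit, per the labels' protocols. No source used here gives the strandedness. The deposited FPKM equalled count over a fixed length and the column total, so only counts were tested. Identifiers were matched to GENCODE M21. Genes were filtered with filterByExpr by group, scaled by TMM and tested with edgeR 4.0.16 (quasi-likelihood F test, two-sided, Benjamini-Hochberg over 16310 genes, threshold 0.05), in R 4.3.3. Principal transcripts were chosen by APPRIS rank, then support level, then length. The members and lists were chosen with earlier results of these data known. Values in every library were given for genes with an unadjusted p under 0.05, the 4 highest of each family by FPKM and the subunits with several genes; others were added after values were seen. Of each pathway list, up to 3 genes with the smallest p were named; 1 such gene is not reported here.

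Replicates were taken to be separate animals, which the sample titles alone do not state. With 2 against 2 an exact permutation test cannot go below a two-sided p of 0.333, so single genes were tested only in the fit across genes. Alternatives were other scalings and filters, DESeq2 1.42.0, limma-voom (limma 3.58.1), a replicate block and leaving out each library. The test was run on simulated data with known changes for this comparison: of 50 genes set to each size, 2 passed at a 2-fold change, 12 at 4-fold, 29 at 8-fold and 43 at 16-fold, among 15820 genes with 7 false calls.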

Additional observations from a re-analysis of the deposited data

How the results depend on the processing

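No gene passed by edgeR with TMM scaling (0 of 16310, 1354 at an unadjusted p under 0.05). With library totals 1 gene passed, with DESeq2 150, with limma-voom 1, and with a replicate block 4; leaving out single libraries gave 0 to 409, with 409 when wild type replicate 1 was dropped, 68 for wild type replicate 2, 3 for knockout replicate 2 and 0 for knockout replicate 1. Of the vacuolar ATPase genes 0 to 1 passed when a library was left out (Atp6v0a4, without wild type replicate 1), and of the cathepsins 0 under each alternative. The median log2 fold change without single libraries lay between -0.25 and 0.10 for the vacuolar ATPase genes and between -0.72 and -0.027 for the cathepsins. The labels do not say that replicate numbers pair animals, and under the replicate block the medians were -0.02 and -0.35. Leaving out 1 library leaves a group with 1 sample, assumed to vary like the other group.

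Of the 34 tested members, 16 had the same sign under each alternative that tested them. For the genes whose sign turned when 1 library was left out, the log2 fold changes ranged as follows: Atp6ap1 -0.27 to 0.21, Atp6ap2 -0.022 to 0.33, Atp6v0a1 -0.37 to 0.60, Atp6v0b -0.25 to 0.27, Atp6v0d1 -0.25 to 0.66, Atp6v1a -0.46 to 0.082, Atp6v1b2 -0.48 to 0.051, Atp6v1d -0.33 to 0.27, Atp6v1e1 -0.96 to 0.14, Atp6v1f -0.77 to 0.25, Atp6v1g1 -0.37 to 0.51, Atp6v1h -0.18 to 0.10, Ctsa -0.74 to 0.12, Ctsf -0.37 to 0.17, Ctsk -0.13 to 1.06, Ctsl -0.065 to 0.45, Ctso -0.11 to 0.11, Ctsz -0.92 to 0.22, Tcirg1 -0.31 to 0.12, Tfrc -0.79 to 0.16. The sign also turned with DESeq2 size factors (Atp6v0b -0.012, Ctso -0.0021); with no filter (Atp6v0b -0.035, Atp6v1g1 -0.018, Ctso -0.026); with DESeq2 (Atp6v0b -0.012, Ctso -0.0022); with a mean of at least 5 CPM (Atp6v1h 0.00057); with library totals (Ctso -0.013). The cause was not tested.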

Other observations

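The ratio of Ctsb to Ctsl, computed after the values were seen, was 4.39 and 8.44 in CPM in wild type replicates 1 and 2, against 2.74 and 2.53 in the knockout replicates. The groups did not overlap. Among all single genes tested, 21.9% had no overlap with the knockout higher and 20.1% with it lower, and no such share was computed for ratios. Ctsl, the denominator of each ratio here, had a log2 fold change of 0.22, against -1.06 for Ctsb and -0.93 for Ctsd. The ratio of Ctsd to Ctsl was 2.2 and 4.61 against 1.66 and 1.38, also without overlap, although the CPM of Ctsd itself overlapped between the groups. That of Ctsz to Ctsl was 1.17 and 2.42 against 1.14 and 1.15, where wild type replicate 1 lay just above both knockout libraries. With 2 libraries a group the smallest two-sided exact permutation p is 0.333, so no test is given.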
